A study of Rattus norvegicus with 14 samples.

Results

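The ratio of HF to HG in rat small intestine was compared between perfusions of 4 h and of 20 min. Each array carried an HG sample in channel 1 and an HF sample in channel 2, and it gave 1 log ratio for each of 4952 probes. The 5 arrays at 4 h and the 4 at 20 min were taken from their labels, which makes 9 of the 14 arrays of the series. A difference between these ratios, taken as 4 h minus 20 min, asks which genes responded differently to HF and HG after the longer perfusion, and a dye effect that both sets of arrays share cancels in it. The labels do not spell out HG and HF. They are read here as high glucose and high fructose, which rests on knowledge of the study alone.

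All samples were small intestine of rats aged 20 days, an age around weaning, perfused with HG or with HF. The labels of the 20 min arrays give the age as 20 without a unit. Neither a strain nor the number of animals behind a sample is given in the labels, so the p-values below measure the spread between arrays. No intestine without HG and HF was set against another sample, so a rise with HF and a fall with HG cannot be told apart. The arrays left out were a second array of pair 2 at 4 h, 3 arrays with the same RNA in both channels (self-self below) and 1 array of labelling primer alone.

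Fructose enters the absorptive cell of the intestine through the transporter GLUT5, is phosphorylated by ketohexokinase, and joins glycolysis below the step at which glucose is regulated. Glucose enters with sodium through SGLT1, and both sugars leave toward the blood through GLUT2. Before weaning the rat intestine makes little GLUT5, and luminal fructose is known to induce its gene. The same cells can make glucose through fructose bisphosphatase and glucose 6-phosphatase, and they form lipid from sugar carbon under control of the transcription factor ChREBP.

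The deposited values are log ratios, treated as log2. Neither the base of the logarithm nor the scale and direction of the ratio is stated in the labels or the table. Positive ratios are called the HF side here and negative ones the HG side, a direction that is assumed and not settled. It rests on the known induction of Slc2a5, the GLUT5 gene, by fructose, since Slc2a5 averaged 1.65 ± 0.25 (SD, n = 5) at 4 h, so the sign of Slc2a5 is no result. On the second array of pair 2, whose title carries marks read as swapped dyes, Slc2a5 was -1.66, but a swap turns the sign whichever way the ratio runs. A ratio also holds the dye effect of its probe, so the side names the sign of a ratio and does not by itself show more RNA in that sample. The comparison further assumes that the ratio runs the same way at both times. The sets of arrays differ with the time, so an effect of the array set and an effect of time cannot be told apart. One difference between the sets is visible in the table. Probes listed at exactly 0 numbered 37, 53, 61 and 123 on the 4 arrays at 20 min (0.747% to 2.48% of probes) and 0 on each array at 4 h.

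Of 4682 features tested, 37 differed between the times at an adjusted p below 0.05 (limma with Benjamini-Hochberg adjustment), which is 0.79%. The ratio was higher at 4 h for 17 (0.363%) and lower for 20 (0.427%). Differences of the called features ran from 0.55 to 2.02 in size on the log2 scale. The number called was 12, 19 and 17 without 4 h array 1, 2 or 3, in that order, and 11, 5, 10 and 9 without 20 min array 1, 2, 3 or 4. With the second array of pair 2 averaged in with its sign turned the count was 11. Averaged in as deposited it gave 0, a setting in which a swapped array would cancel the ratios of pair 2 (Cnga3 was 2.00 on array 2 and -2.12 on the second array). In the 9 arrays 644 features passed an unadjusted p of 0.05. After quantile normalization 18 were higher and 12 lower, against 17 and 20 here.

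The mean ratio was farther from 0 at 4 h than at 20 min for 30 of the 37 called features, among them 14 of those higher and 16 of those lower, against 56.5% of all features. For the other 7, with Barhl1 and Hspbp1 among them, it was farther from 0 at 20 min. In 12 of the 37 every array at 4 h had one sign and every array at 20 min the opposite sign, as in 1.32% of all features. The arrays of the 2 times did not overlap for any of the 37, against 6.54% of all features (3.42% higher and 3.12% lower at 4 h). This count and that of opposite signs are tied to the test that chose the 37.

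**Figure D1:**
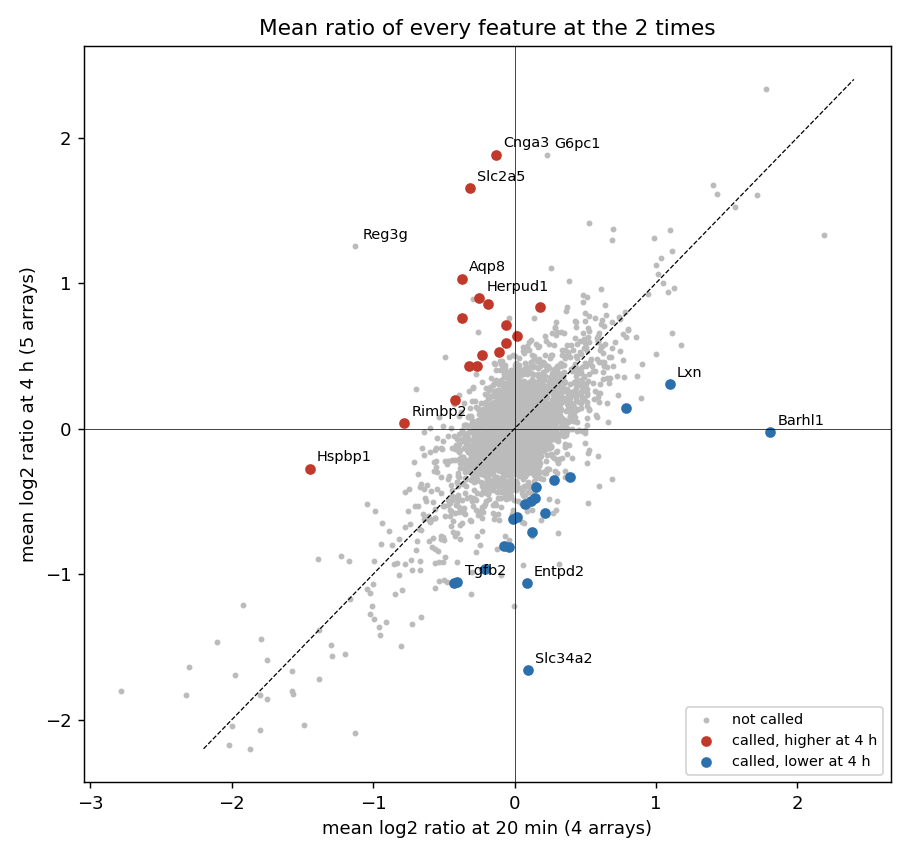
Mean log2 ratio of every feature at 4 h (vertical axis, 5 arrays) against 20 min (horizontal axis, 4 arrays), with features called higher at 4 h in red, lower in blue and the rest in grey, and a dashed line where both times are equal. Cnga3 and Slc2a5 sit near 0 at 20 min and above 1.5 at 4 h, while Barhl1 sits near 0 at 4 h.

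Ratios were more widely spread across the whole array at 4 h. The SD over the features of an array was 0.35, 0.381, 0.397, 0.399 and 0.374 on the arrays at 4 h and 0.329, 0.344, 0.334 and 0.342 on those at 20 min. Every array at 4 h exceeded every array at 20 min, with the closest pair 0.35 and 0.344. The mean SD was higher by 0.0427 at 4 h (exact two-sided permutation test over arrays, p = 0.0159, smallest possible 0.00794). The median Pearson correlation across features was 0.52 between arrays at 4 h, 0.50 between arrays at 20 min and 0.38 between arrays of different times. These correlations are a description, since all arrays share probes. Of the self-self arrays, to which some ratios are compared below, the first stood apart, with an SD of 1.39 against 0.34 and 0.298 for the others, and 343 features beyond 1 in size against 86 and 60.

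Transport of sugars was led by Slc2a5. Its ratios were 1.53, 1.62, 1.95, 1.84 and 1.33 on the 4 h arrays and -0.38, -0.015, -0.43 and -0.44 on the 20 min arrays. The 4 h arrays all lay far on the HF side and the 20 min arrays all lay slightly on the HG side, 1 of them almost at 0. The difference was 1.97 ± 0.15 (SE), a 3.92-fold higher ratio at 4 h (limma adjusted p = 9.29e-06). On the 3 self-self arrays Slc2a5 averaged -0.038. The array of labelling primer alone gave -0.34, near the mean of -0.32 at 20 min. What part signal unrelated to the samples had in the 20 min ratios was not tested.

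Slc2a5 was the 1 call among 11 measured sugar transporters, against 0.363% of all features called higher. Slc2a2, the gene of GLUT2, differed by -0.056 with a 95% interval from -0.40 to 0.29, and Slc5a1, the gene of SGLT1, by 0.061 with an interval from -0.42 to 0.54. The sign of both changed when single arrays were left out, so no direction is given. Both intervals end far below the difference of Slc2a5. Slc2a4, the gene of the insulin-responsive transporter GLUT4, differed by 0.65 (limma adjusted p = 0.113) and Slc5a3, a sodium and myo-inositol transporter, by -0.32 (adjusted p = 0.374). The median difference of the 11 was 0.06, against -0.0084 over all features, and its sign changed without 4 h array 1 or 20 min array 3.

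The largest difference among the called features belonged to Cnga3, which encodes a subunit of a cation channel opened by cyclic GMP and best known from cone photoreceptors. Its ratios were 1.55, 2.00, 1.90, 1.86 and 2.11 at 4 h and -0.074, -0.11, -0.20 and -0.15 at 20 min. All 5 arrays at 4 h lay far on the HF side, and the 4 arrays at 20 min lay close together just below 0. The difference was 2.02 ± 0.12 (SE), 4.05-fold (limma adjusted p = 1.55e-06). Self-self arrays averaged -0.16. It was the 1 called gene among 20 cyclic nucleotide channels and phosphodiesterases (0.363% of all features were called higher). Their median difference was -0.06, positive without 4 h array 2. Gucy2c, the intestinal receptor for guanylin that makes cyclic GMP, differed by -0.52 (adjusted p = 0.248), and the phosphodiesterase gene Pde2a by -0.30 (adjusted p = 0.271).

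**Figure D2:**
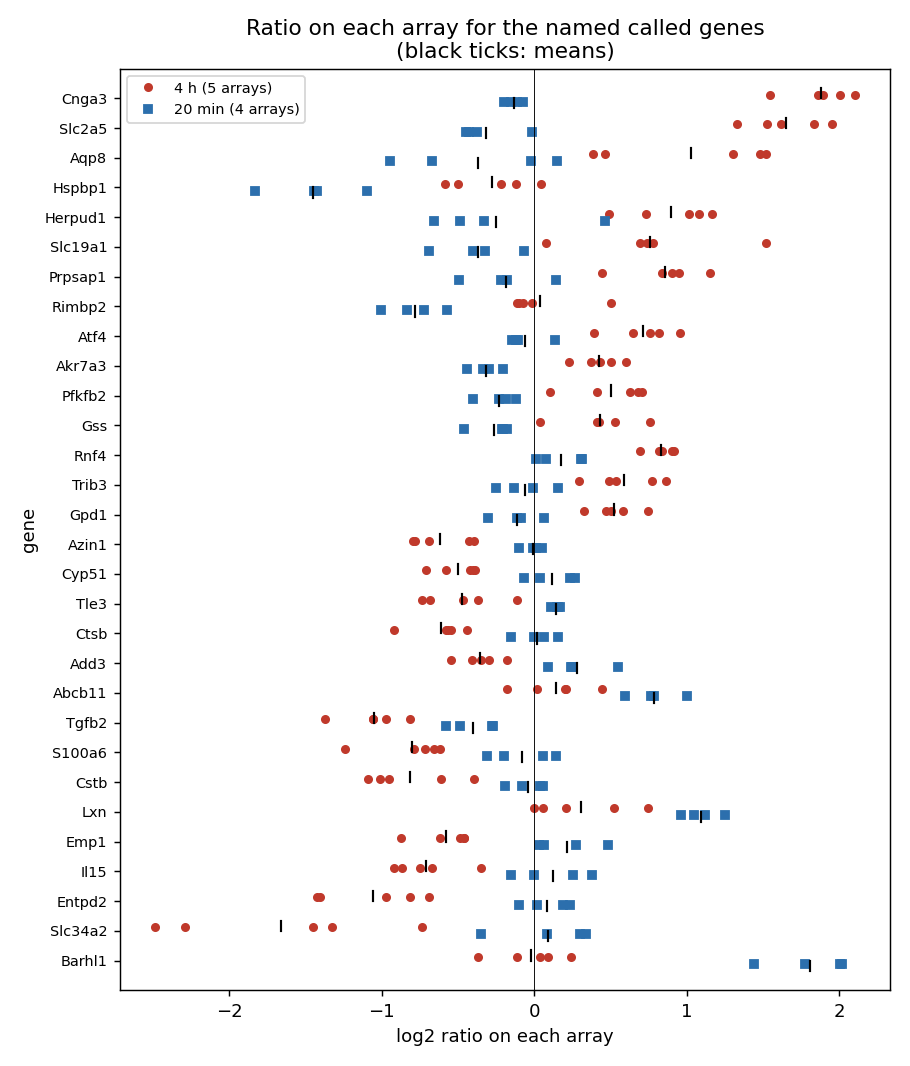
Log2 ratio on each array (horizontal axis) for the 30 named called genes with the largest differences, with circles for the 5 arrays at 4 h, squares for the 4 at 20 min and black ticks for the means. Within each gene shown the circles and squares do not overlap. Herpud1 comes closest, with 1 array at 20 min at 0.47 and 1 at 4 h at 0.49.

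Because Cnga3 and Slc2a5 stood clear of all other genes called higher, their promoters are shown, from 250 bases before to 50 after the start site, from RefSeq (build GRCr8). Both lie on the plus strand, Cnga3 at chr9:46943103-46943402 and Slc2a5 at chr5:165865929-165866228. Capitals mark matches to any of 6 motifs searched on both strands, which were the E-box CACGTG, the CCAAT box, TATAAA, the GC box GGGCGG, the cAMP response core TGACG and the ER stress element (CCAAT, 9 bases of any kind, CCACG), the last of which contains the CCAAT box.
Cnga3: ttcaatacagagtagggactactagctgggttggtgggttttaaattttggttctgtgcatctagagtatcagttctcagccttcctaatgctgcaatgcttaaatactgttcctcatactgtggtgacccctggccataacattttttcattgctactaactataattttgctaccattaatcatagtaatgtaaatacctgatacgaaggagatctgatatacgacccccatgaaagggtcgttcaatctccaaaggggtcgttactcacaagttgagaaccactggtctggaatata
Slc2a5: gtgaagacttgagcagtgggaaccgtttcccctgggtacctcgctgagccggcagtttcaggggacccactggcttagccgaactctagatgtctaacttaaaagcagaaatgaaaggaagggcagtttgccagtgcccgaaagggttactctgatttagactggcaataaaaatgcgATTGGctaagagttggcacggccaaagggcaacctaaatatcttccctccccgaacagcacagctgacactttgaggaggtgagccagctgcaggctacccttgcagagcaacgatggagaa
The window of Cnga3 held none of these motifs and that of Slc2a5 held 1, a CCAAT box on the minus strand at -72. A CCAAT box was found in 37.5% of all promoters of this length, and in 6 of the 28 called genes with a promoter in the table (34 called genes have a symbol). A missing match says only that these letters are not in the window.

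Pfkfb2, which makes and breaks the regulator fructose 2,6-bisphosphate, had ratios of 0.71, 0.63, 0.41, 0.10 and 0.68 at 4 h and -0.23, -0.12, -0.40 and -0.19 at 20 min. All 4 h arrays were on the HF side, 1 of them near 0, and all 20 min arrays on the HG side. The difference was 0.74 ± 0.14 (SE; limma adjusted p = 0.0342). Gpd1, the cytosolic enzyme that turns dihydroxyacetone phosphate into the glycerol 3-phosphate of lipids, had ratios of 0.51, 0.58, 0.75, 0.32 and 0.47 at 4 h and 0.067, -0.11, -0.31 and -0.089 at 20 min. Its 4 h arrays were again all on the HF side, and those at 20 min scattered around 0 (0.64 ± 0.12, adjusted p = 0.0344). Pdk2, a kinase that inhibits pyruvate dehydrogenase, differed by 0.62 (adjusted p = 0.0344), with 0.63 ± 0.20 (SD, n = 5) at 4 h against 0.014 ± 0.082 (SD, n = 4) at 20 min, and was 2.20, -0.19 and 0.13 on the self-self arrays. Ugdh, which makes UDP-glucuronate, differed by 0.62 (adjusted p = 0.0488). Pdk2 and Ugdh were chosen after their values had been seen.

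Glycolytic genes leaned the same way in number. Of 24 measured, 1 was called higher (Pfkfb2), against 0.363% of all features, and 0 lower. In 16 the difference was above 0, against 48% of all features, and the median was 0.09. Pfkl, the liver-type phosphofructokinase gene, differed by 0.62 (limma adjusted p = 0.0999), Eno1 by 0.44 (adjusted p = 0.211) and Ldhb by 0.38 (adjusted p = 0.185). One value of Ldhb at 20 min is listed at exactly 0. Among 6 genes of fructose and sorbitol metabolism none was called. Khk, the gene of ketohexokinase, differed by 0.20 with an interval from -0.031 to 0.43. Gckr, the gene of the glucokinase regulator, differed by 0.30, and Akr1b1, the aldose reductase gene, by 0.18.

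Glucose production gave large differences with wide errors. G6pc1, the catalytic subunit of glucose 6-phosphatase, had ratios of 2.50, 2.26, 1.98, 1.54 and 1.11 at 4 h and 1.64, -0.36, 0.60 and -0.96 at 20 min. Every array at 4 h was above 1, and the 20 min arrays ran from the HG side to a value above 2 of the 4 h arrays. The difference was 1.65 with a 95% interval from 0.72 to 2.57 (limma adjusted p = 0.113). Without 20 min array 1 it was 2.12 and passed the test. Fbp1, fructose bisphosphatase, differed by 0.85 (interval 0.37 to 1.33, adjusted p = 0.113), and Slc37a4, which carries glucose 6-phosphate to that phosphatase, by 0.49 (adjusted p = 0.0919). None of 12 genes of this group was called, 9 differences were above 0 and their median was 0.29. The median ratio of the group was 0.19 to 0.38 on the arrays at 4 h and 0.01 to 0.06 on those at 20 min, without overlap.

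**Figure D3:**
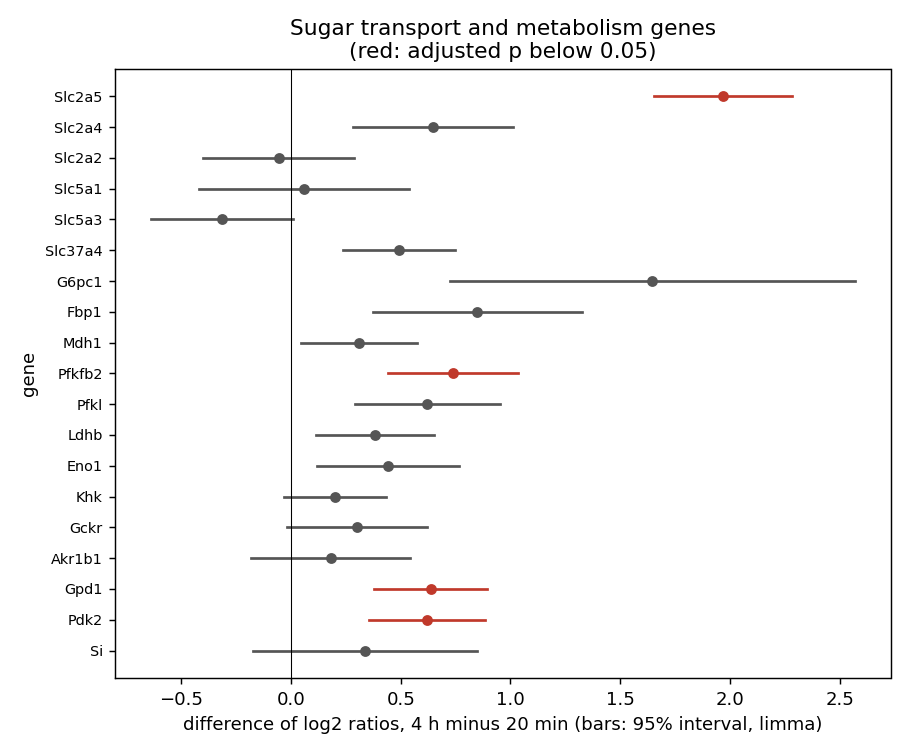
Difference of log2 ratios, 4 h minus 20 min, for genes of sugar transport and metabolism, with 95% intervals from limma and called genes in red. Slc2a5 stands alone near 2, G6pc1 has the widest interval, and the intervals of Slc2a2, Slc5a1 and Khk are among those that include 0.

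On the route from sugar to nucleotides the ratio of Prpsap1 was higher at 4 h. It encodes a protein bound to phosphoribosyl pyrophosphate synthetase and known to restrain it. Its ratios were 1.15, 0.44, 0.95, 0.90 and 0.84 at 4 h and 0.14, -0.49, -0.18 and -0.22 at 20 min. All arrays at 4 h were on the HF side, and 1 of the arrays at 20 min was as well. The difference was 1.04 ± 0.16 (SE; limma adjusted p = 0.00953). Its homologue Prpsap2 differed by 0.26 (adjusted p = 0.415). Prpsap1 was the 1 call among 6 measured genes of the pentose phosphate and phosphoribosyl route (0.363% of all features were called higher).

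Of 11 genes of fatty acid synthesis and ChREBP targets, 1 was called higher (Gpd1), against 0.363% of all features. In 10 the difference was above 0, against 48% of all features, and the median was 0.15. Their median ratio was 0.05 to 0.30 on the 4 h arrays and -0.11 to -0.05 on the 20 min arrays, without overlap. Acly, which makes cytosolic acetyl-CoA, differed by 0.42 (limma adjusted p = 0.34), and Dgat1, which completes triglycerides, by 0.33 (adjusted p = 0.337). Among 21 genes of lipid absorption and lipoproteins 0 were called, 7 were above 0 and the median was -0.09. Apoc3, the gene of an inhibitor of lipoprotein lipase, differed by -0.91 (adjusted p = 0.0612), Apoa1 by -0.44, Lipa by -0.54 and Fabp2, the intestinal fatty acid binding protein gene, by -0.50. Dgat1 belongs to this list as well and had its highest difference. The difference between the lists was not tested.

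In sterol synthesis 1 of 13 genes was called lower (0.427% of all features), and it went against the median of its group. Cyp51, the lanosterol demethylase gene, had ratios of -0.42, -0.40, -0.71, -0.39 and -0.58 at 4 h and -0.069, 0.036, 0.23 and 0.27 at 20 min. All 4 h arrays were on the HG side, and 3 of those at 20 min were on the HF side. The difference was -0.62 ± 0.12 (SE; limma adjusted p = 0.0344). The group's median was 0.11, and it was negative without 4 h array 5. Dhcr7 differed by 0.35, Mvd by 0.29 and Ebp by -0.36, all without passing the test. Abcb11, a bile salt exporter, was called lower at -0.65 ± 0.14 (adjusted p = 0.049), from 0.79 ± 0.17 (SD, n = 4) at 20 min to 0.14 ± 0.23 (SD, n = 5) at 4 h.

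Of 17 genes of the response to unfolded protein and of the transcription factor ATF4, 3 were called with a higher ratio at 4 h (against 0.363% of all features), namely Atf4, Herpud1 and Trib3. This response slows translation when the endoplasmic reticulum is loaded and lets ATF4 accumulate, which then switches on its targets. In the list 14 differences were above 0, against 48% of all features, and the median was 0.14. Their median ratio ran from 0.10 to 0.27 on the 4 h arrays and from -0.13 to 0.01 on those at 20 min.

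Atf4 itself had ratios of 0.82, 0.39, 0.96, 0.65 and 0.76 at 4 h and -0.11, -0.14, 0.14 and -0.12 at 20 min. Every 4 h array was above every 20 min array, of which 3 were slightly on the HG side. The difference was 0.77 ± 0.13 (SE; limma adjusted p = 0.0203), and the 2 probes of the gene gave 0.67 and 0.87. On the self-self arrays Atf4 was 1.77, -0.067 and 0.029, and with them in the fit it did not pass. The first of these is the self-self array that stood apart. Herpud1, a membrane protein of the degradation pathway at the endoplasmic reticulum, had ratios of 0.73, 0.49, 1.17, 1.02 and 1.08 at 4 h and -0.33, -0.49, -0.66 and 0.47 at 20 min. The 20 min values were spread over more than 1 unit, and array 4 reached almost to the lowest 4 h value (1.15 ± 0.21, adjusted p = 0.0342). Trib3, a pseudokinase induced by ATF4, had ratios of 0.49, 0.53, 0.77, 0.86 and 0.29 at 4 h and 0.16, -0.13, -0.0048 and -0.25 at 20 min. All 4 h arrays were on the HF side and the 20 min arrays lay around 0 (0.65 ± 0.14, adjusted p = 0.0488). With the self-self arrays in the fit Trib3 did not pass either. Neither Herpud1 nor Trib3 passed with the second array of pair 2 averaged in with its sign turned, or with the replicate number as a block. Of 11 settings other than leaving out 1 array, Trib3 passed in 4. On that second array Trib3 was -0.026, against 0.53 on array 2, so its sign turned but its size did not hold. Herpud1 was -0.39 there, against 0.49 on array 2. The cause was not tested. Dnajc3, the gene of a chaperone that inhibits a kinase of the same response, differed by 0.54 and did not pass (adjusted p = 0.107). Of the 3 list members below 0, Dnajb9 was lowest at -0.31. Slc3a2, the heavy chain of amino acid exchangers, differed by 0.56 (adjusted p = 0.113), while 13 of the 19 amino acid and peptide transporters were not above 0, Slc38a1 at -0.86 among them.

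The promoters of these 3 genes are shown because the genes were called together, a choice made after their values had been seen. They are RefSeq windows of the same length and build, with the same motifs in capitals: Atf4 at chr7:113684431-113684730 on the plus strand, Herpud1 at chr19:10614658-10614957 and Trib3 at chr3:161275484-161275783, both on the minus strand.
Atf4: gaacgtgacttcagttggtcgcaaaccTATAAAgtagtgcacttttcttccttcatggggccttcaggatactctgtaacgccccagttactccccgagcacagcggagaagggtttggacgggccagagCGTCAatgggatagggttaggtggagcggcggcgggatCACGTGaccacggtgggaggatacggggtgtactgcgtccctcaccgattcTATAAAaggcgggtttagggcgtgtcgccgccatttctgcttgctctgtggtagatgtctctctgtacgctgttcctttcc
Herpud1: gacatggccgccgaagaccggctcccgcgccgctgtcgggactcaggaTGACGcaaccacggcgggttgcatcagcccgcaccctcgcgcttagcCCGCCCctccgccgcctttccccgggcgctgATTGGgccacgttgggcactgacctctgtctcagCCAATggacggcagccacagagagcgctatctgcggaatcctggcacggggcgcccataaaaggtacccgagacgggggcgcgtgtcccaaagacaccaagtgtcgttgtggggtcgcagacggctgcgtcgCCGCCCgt
Trib3: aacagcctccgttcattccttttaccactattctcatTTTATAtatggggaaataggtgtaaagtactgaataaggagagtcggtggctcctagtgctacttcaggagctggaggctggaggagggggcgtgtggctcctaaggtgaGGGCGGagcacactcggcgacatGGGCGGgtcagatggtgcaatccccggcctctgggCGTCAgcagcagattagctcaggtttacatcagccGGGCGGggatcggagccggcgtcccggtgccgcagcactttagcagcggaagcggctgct
Each of the 3 held the core TGACG once, at -120 (minus strand) in Atf4, at -202 in Herpud1 and at -45 (minus strand) in Trib3. That core was in 21.2% of all promoters, in 26.9% of those of the genes on the array and in 7 of the 28 called genes with a promoter in the table. Herpud1 also held CCAAT boxes at -124 and -90 and Trib3 held GC boxes at -103, -80 and -10. Atf4 held an E-box at -82, as did 6.42% of all promoters. The spaced ER stress element was in none of the 28 and in 0.0657% of all promoters, counted as exact matches to that form only. Herpud1 came close to it at -90, where CCAATggacggcagccaca differs from it in the last letter alone. At -124 Herpud1 also held ATTGGgccacg, in which a CCAAT box and the letters CCACG stand in another arrangement. Other arrangements were not searched, so the count does not show that Herpud1 lacks an ER stress element.

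Hspbp1, a partner that releases nucleotide from the chaperone Hsp70, differed in another way. Its ratios were -0.58, -0.12, -0.22, 0.043 and -0.50 at 4 h and -1.42, -1.83, -1.09 and -1.45 at 20 min. The 20 min arrays were all far on the HG side, whereas the 4 h arrays lay closer to 0. The difference was 1.17 ± 0.17 (SE; limma adjusted p = 0.00761). Self-self arrays averaged -0.056. It was the only call among 17 heat shock genes (0.363% of all features were called higher). Their median difference of 0.02 changed sign under 5 settings. Hsf1, the main activator of that family, differed by 0.31 (adjusted p = 0.283).

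Genes of detoxification and glutathione gave 2 calls among 33, both higher at 4 h (0.363% of all features), with 23 differences above 0 (48% of all features) and a median of 0.09. Akr7a3, an aldehyde reductase that acts on aflatoxin, had ratios of 0.23, 0.43, 0.60, 0.37 and 0.50 at 4 h and -0.20, -0.30, -0.34 and -0.44 at 20 min. The signs were opposite at the 2 times on every array (0.75 ± 0.11, limma adjusted p = 0.00953). Gss, the second enzyme of glutathione synthesis, had ratios of 0.42, 0.76, 0.53, 0.041 and 0.41 at 4 h and -0.20, -0.18, -0.46 and -0.21 at 20 min. Signs were again opposite throughout, with 1 array at 4 h almost at 0 (0.70 ± 0.14, adjusted p = 0.0354). Akr7a2 differed by 0.45 (adjusted p = 0.119) and Sod1, the cytosolic superoxide dismutase gene, by 0.51 (adjusted p = 0.161).

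Among 25 genes of mineral and ion transport 1 was called lower at 4 h (0.427% of all features) and 1 higher (0.363%). Slc34a2, the sodium and phosphate cotransporter of the intestine, had ratios of -1.33, -0.74, -2.49, -2.29 and -1.45 at 4 h and 0.081, 0.30, 0.34 and -0.35 at 20 min. The 4 h arrays were all on the HG side but spread over more than 1 unit, and 3 of the 20 min arrays were on the HF side. The difference was -1.75 ± 0.30 (SE; limma adjusted p = 0.0227). Aqp8, a water and ammonia channel, had ratios of 1.30, 1.52, 1.48, 0.38 and 0.46 at 4 h and 0.15, -0.024, -0.67 and -0.94 at 20 min. Its 4 h arrays fell into 3 high and 2 lower values, all above the 20 min arrays, of which 1 was on the HF side (1.40 ± 0.28, adjusted p = 0.0354).

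In that list 11 differences were above 0 and the median was -0.10. Slc11a2, the iron importer DMT1, differed by -0.46 (limma adjusted p = 0.0689), and Scnn1a, a subunit of the epithelial sodium channel, by 0.38 (adjusted p = 0.154). Slc19a1, which imports reduced folate, was called higher outside these lists. Its ratios were 0.78, 0.69, 0.74, 0.074 and 1.52 at 4 h and -0.066, -0.69, -0.40 and -0.33 at 20 min. The lowest 4 h array came near 0 and the highest stood well above the others (1.13 ± 0.23, adjusted p = 0.0354).

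Among the genes lower at 4 h, Barhl1 had the largest difference. It encodes a homeodomain transcription factor of neurons. Its ratios were 0.089, 0.24, -0.11, 0.038 and -0.37 at 4 h and 1.44, 2.00, 2.02 and 1.78 at 20 min. The 20 min arrays all lay far above 0 and the 4 h arrays in the fit lay around 0, so among these the ratio stood away from 0 at the earlier time. The second array of pair 2 at 4 h, left out of the fit, gave 2.09 for Barhl1 as deposited, against 0.24 on array 2. The difference was -1.83 ± 0.15 (SE; limma adjusted p = 2.74e-05). The self-self arrays averaged 0.44, and the array of labelling primer alone gave 0.97 for this gene. What part signal unrelated to the samples had in the ratio was not tested.

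Entpd2, an enzyme of the cell surface that removes phosphate from ATP outside the cell, had ratios of -0.97, -0.81, -0.69, -1.40 and -1.42 at 4 h and 0.23, 0.019, 0.19 and -0.099 at 20 min. All 4 h arrays were on the HG side and the 20 min arrays lay around 0. The difference was -1.15 ± 0.16 (SE; limma adjusted p = 0.00761). It was the 1 call among 18 ectonucleotidases and purine receptors (0.427% of all features were called lower). Their median was -0.06. Enpp2, the gene of autotaxin, differed by -0.31 (adjusted p = 0.397).

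Lower ratios at 4 h were also called for signalling and structural genes. Il15, a cytokine that maintains lymphocytes of the epithelium, had ratios of -0.75, -0.87, -0.92, -0.67 and -0.35 at 4 h and -0.15, -0.00094, 0.25 and 0.38 at 20 min. All 4 h arrays were on the HG side (-0.83 ± 0.15, limma adjusted p = 0.0267). It was the 1 call among 40 cytokines, chemokines and receptors (0.427% of all features were called lower), with a median of -0.04. Ccl2 differed by -0.55 and Tnfrsf1a by -0.40 without passing. Emp1, an epithelial membrane protein, had ratios of -0.88, -0.62, -0.46, -0.49 and -0.46 at 4 h and 0.065, 0.28, 0.030 and 0.48 at 20 min. Its signs were opposite at the 2 times on every array (-0.79 ± 0.13, adjusted p = 0.0203). Add3, an adducin of the spectrin skeleton, also had opposite signs at the 2 times on every array. It averaged -0.35 ± 0.14 (SD, n = 5) at 4 h and 0.28 ± 0.19 (SD, n = 4) at 20 min (limma adjusted p = 0.0344). The second array of pair 2 gave 0.93 for Emp1, against -0.62 on array 2, but -0.15 for Add3, against -0.18. So the sign of Add3 did not turn there, and the cause was not tested. Add3 was called in 1 of the 9 fits without 1 array, and Emp1 in 7. Emp1 and Add3 were the 2 calls, both lower (0.427% of all features), in a list of 19 genes of cytoskeleton and adherens junctions. In 5 of the 19 the difference was above 0, against 48% of all features. The list was chosen with earlier results of these data known, and it includes membrane proteins such as Emp1. Its median ratio was -0.23 to -0.03 on the 4 h arrays and -0.0049 to 0.23 on those at 20 min. In that list Pmp22, a relative of Emp1, differed by -1.25 with a wide interval from -1.97 to -0.53.

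Tgfb2, a growth factor gene of the TGF-beta family, was called at -0.65 ± 0.13 (limma adjusted p = 0.0354), but its 2 probes gave -1.16 and -0.14, so the call rested on 1 of them. On the self-self arrays Tgfb2 averaged -0.59, between its means of -0.40 at 20 min and -1.05 at 4 h. Smad2, which carries the signal of that family, differed by -0.50 (adjusted p = 0.153), and 15 of the 27 family members were above 0. Cstb, an inhibitor of cathepsins, differed by -0.77 (adjusted p = 0.0344), Ctsb, the cathepsin B gene, by -0.62 (adjusted p = 0.0344) and S100a6, a calcium binding protein gene, by -0.73 (adjusted p = 0.0386). For Ctsb the self-self arrays gave 3.29, -0.22 and 0.058, the first being the array that stood apart. Lxn, an inhibitor of carboxypeptidases, had ratios of 0.31 ± 0.32 (SD, n = 5) at 4 h against 1.10 ± 0.12 (SD, n = 4) at 20 min (adjusted p = 0.0344). The self-self arrays gave 0.59, 0.55 and 1.13 for Lxn, above its 4 h mean, so the positive ratios do not show more RNA with HF.

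The remaining calls were spread over other functions. Higher at 4 h were Rimbp2, a scaffold protein of synapses (0.82), and Rnf4, a ubiquitin ligase for sumoylated proteins (0.66). Rimbp2 was near 0 on 4 of the 5 arrays at 4 h and on the HG side at 20 min, whereas Rnf4 was above 0 on all 9 arrays. The self-self arrays averaged 0.46 for Rnf4, between its means of 0.18 at 20 min and 0.83 at 4 h. Lower at 4 h were Tle3, a corepressor gene (-0.62), Azin1, which blocks the inhibitor of ornithine decarboxylase (-0.61), and, chosen after their values had been seen, Gnaq, a G protein subunit gene (-0.59), and Dab2, a clathrin adaptor gene (-0.55). Another 3 called features were probes without a gene symbol.

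Large groups of housekeeping genes had small differences mostly of one sign. Of 63 ribosomal protein genes 0 were called, 56 were above 0, against 48% of all features, and the median was 0.15. Their median ratio was 0.06 to 0.26 on the 4 h arrays and -0.01 to 0.04 on those at 20 min. Rpl31 differed by 0.58, Rpl19 by 0.45, Rpl35 by 0.63 and Rpl13 by 0.58, with limma adjusted p from 0.0801 to 0.102. In the proteasome 24 of 28 were above 0 with 0 calls and a median of 0.16, led by Psmb6 (0.59, adjusted p = 0.0943) and Psma1 (0.50, adjusted p = 0.123). In oxidative phosphorylation 21 of 28 were above 0 with 0 calls and a median of 0.13, with Cox5a at 0.46 and Cox4i1 at 0.42. Members of a list were measured on the same arrays and are not independent of each other.

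Immediate early and feedback genes had 0 calls among 24, and 7 were above 0 with a median of -0.08. Zfp36, which destabilises messenger RNAs of cytokines, differed by 0.61 (limma adjusted p = 0.0615). Dusp6, a phosphatase that limits ERK, differed by -0.85 and Klf10 by -0.74 (adjusted p = 0.107 and 0.113). Gut hormones had 0 calls among 22 and a median of -0.03, Calca at -0.43 and Tac1 at 0.32 among them. The 2 probes of Calca gave -0.72 and -0.15, and 1 probe value of Calca at 20 min is listed at exactly 0. Brush border enzymes had 0 calls among 10 and a median of -0.11, which turned to 0.02 with the second array of pair 2 averaged in with its sign turned. Si, sucrase-isomaltase, differed by 0.34 with an interval from -0.17 to 0.85.

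**Figure D4:**
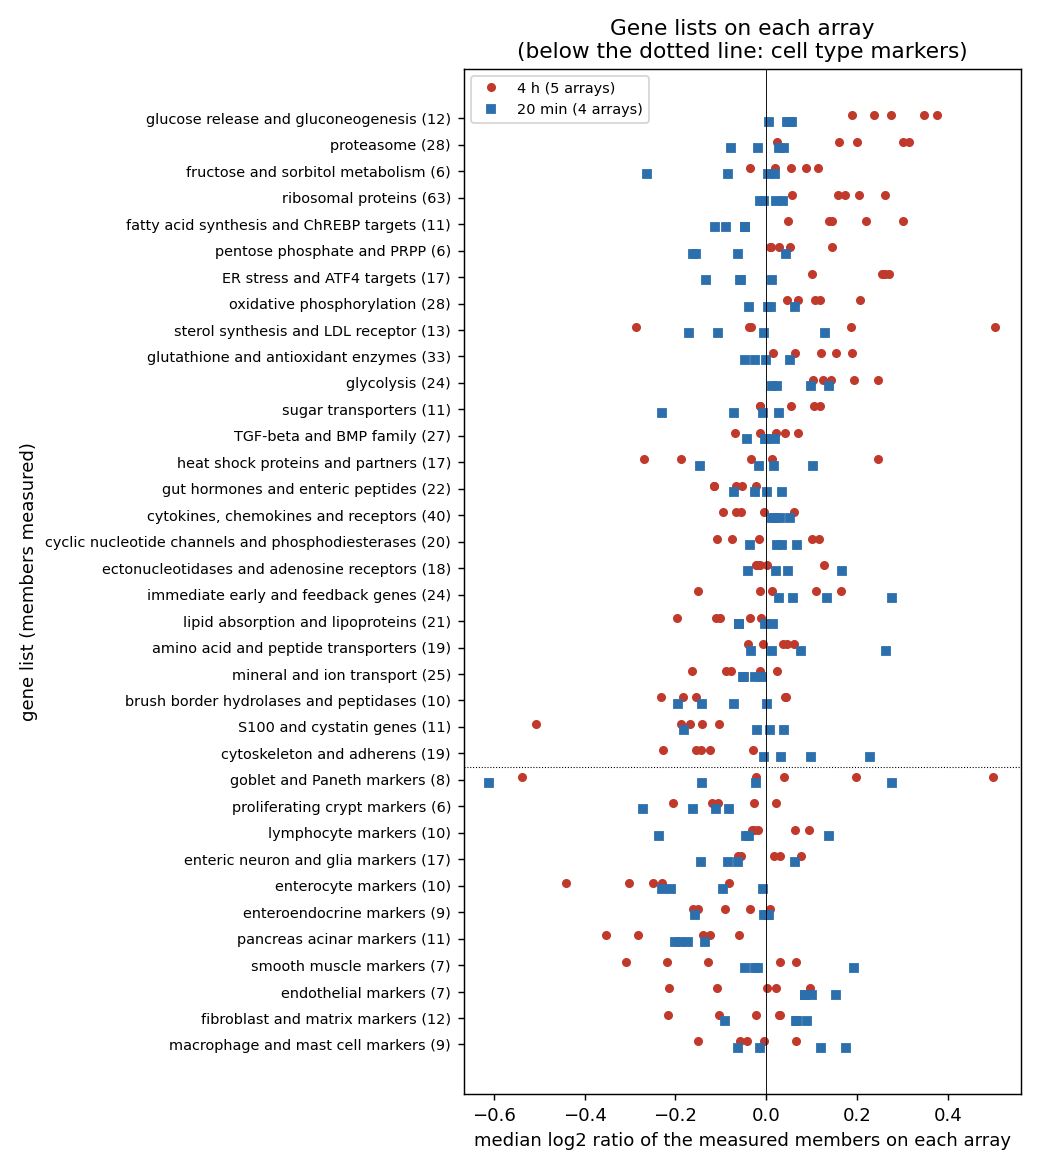
Median log2 ratio of each gene list on each array (horizontal axis), with circles for the 5 arrays at 4 h, squares for the 4 at 20 min and the number of measured members in brackets. The circles lie to the right of all squares for gluconeogenesis, ribosomal proteins, fatty acid synthesis and ER stress, and to the left for cytoskeleton and adherens. In all 11 cell marker lists the circles and squares overlap.

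The samples were bulk tissue, so fewer cells of a type and less RNA per cell cannot be told apart, and log ratios hold no level against which the labelled tissue could be checked. None of 11 lists of cell type markers had a called member. Enterocyte markers had 4 of 10 differences above 0 and a median of -0.03, and their median ratio was -0.44 to -0.08 at 4 h and -0.23 to -0.01 at 20 min. Markers of proliferating crypt cells had 4 of 6 above 0 and a median of 0.07. In small lists of other wall cells fewer differences were above 0 than the 48% of all features. These were 1 of 7 smooth muscle markers (median -0.11, Cnn1 at -0.47) and 1 of 7 endothelial markers (median -0.11, Tie1 at -0.40). So were 3 of 12 fibroblast and matrix markers (median -0.11, -0.03 without 4 h array 2) and 2 of 9 macrophage and mast cell markers (median -0.13). In each of these lists the median ratios of the 2 times overlapped. Enteroendocrine markers had 1 of 9 above 0 (median -0.07), pancreas acinar markers 5 of 11 (median -0.08), neuron and glia markers 12 of 17 (median 0.04) and lymphocyte markers 6 of 10 (median 0.05). Their part in the calls above was not tested.

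Goblet and Paneth markers had the highest median of the marker lists, 0.32 with 7 of 8 above 0, and the widest range. Reg3g, an antibacterial lectin of the crypt, had ratios of -0.40, -1.36, 1.54, 1.66 and 4.84 at 4 h and -0.18, -4.46, -3.26 and 3.38 at 20 min. Both sets ran from the HG side to far on the HF side and overlapped widely, so a difference of 2.38 had an interval from -0.69 to 5.46 (limma adjusted p = 0.497). Reg3b, a close relative, had ratios of -0.55, -0.85, 1.26, 1.24 and 3.36 at 4 h and 0.53, -2.52, -1.36 and 2.16 at 20 min. It was highest on the same array as Reg3g at each time, while Reg3a stayed between -0.59 and 0.45. Whether probes of these relatives pick up each other's transcripts was not tested. Muc2, the main mucin of goblet cells, differed by -0.36 (adjusted p = 0.248).

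Other genes also varied widely within 1 time, though less than Reg3g. Adh1c, an alcohol dehydrogenase gene, ran from -1.87 to 1.96 at 20 min, Cubn, the receptor for intrinsic factor, from -2.30 to 1.58, and Zfp36l1 from -1.47 to 3.26. The array at 20 min with the highest value was not the same for these 3 genes. Of 18 features with a difference above 1 in size, 8 were not called.

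**Figure D5:**
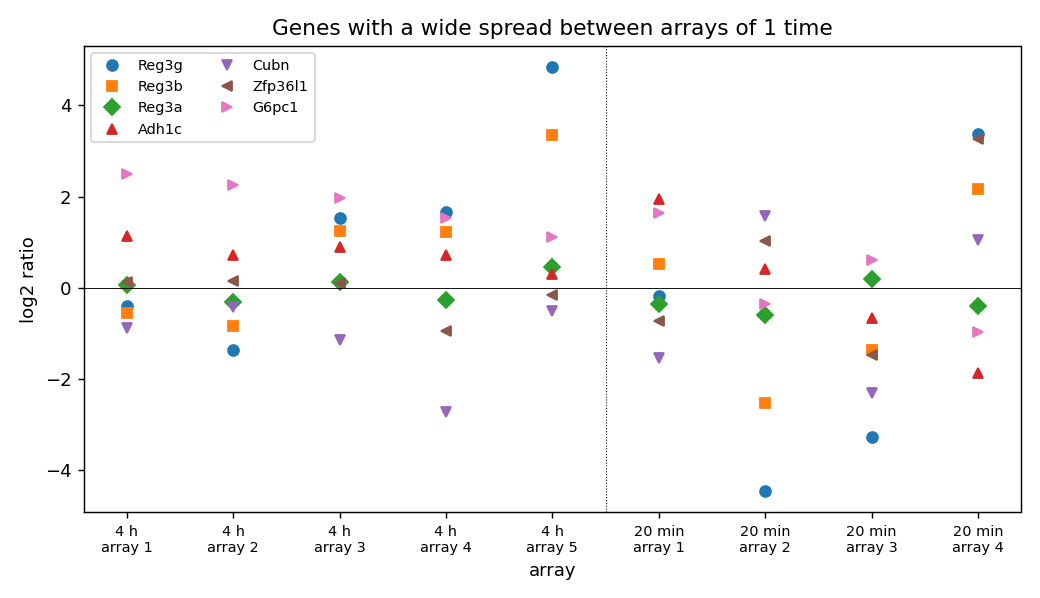
Log2 ratio on each array for the genes with the widest spread within 1 time, together with Reg3a and G6pc1, with the 5 arrays at 4 h on the left and the 4 at 20 min on the right. Reg3g and Reg3b peak on 4 h array 5 and 20 min array 4, and G6pc1 is above 1 on every 4 h array but ranges on both sides of 0 at 20 min.

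How far the calls depended on single arrays differed between genes. In the 9 fits that left out 1 array each, Cnga3, Slc2a5, Hspbp1, Barhl1 and Entpd2 were called in all 9. Prpsap1 and Akr7a3 were called in 8, Emp1 in 7, and Rimbp2 and Slc34a2 in 6. Atf4 and Rnf4 were called in 5, Herpud1 and Il15 in 3, and 21 features in 1 or 2. Among these 21 were Pfkfb2, Gpd1, Aqp8 and Slc19a1, in 2 fits each, and Trib3, Gss, Cyp51, Tgfb2 and Abcb11, in 1 fit each. Ugdh was called in none.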

How the data were processed

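Two-colour arrays of rat small intestine were analysed from the table of log ratios that the authors deposited, treated as log2 values. The scanner, background correction, normalization, base and direction were not given in the sources used here, and neither intensities nor depth were analysed here, so the number of arrays limits the precision. Column medians lay between -0.071 and 0.024. The 9 arrays of HG against HF at 4 h and 20 min were used, and the second array of pair 2, the self-self arrays and the primer array were left out of the fit.

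Of 4952 probes 4426 had 1 gene symbol in the platform annotation, 2 several and 524 none, and 4371 had their Entrez identifier in the RefSeq gene table (GRCr8). Each array was centred on its median and probes of 1 symbol were averaged (191 genes), which gave 4682 features, 4156 with a symbol. The difference of the means was tested with limma 3.58.1 in R 4.3.3 (lmFit, eBayes, 7 residual and 6.21 prior degrees of freedom) and features were called when the p adjusted after Benjamini and Hochberg was below 0.05. The steps were tested on simulated data. Gene lists are described by counts and medians.

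Named are in each direction the 15 called genes that differed most, a fixed set, up to 4 genes of smallest p per list, and the 5 with the widest range at 1 time. Members, lists and promoter motifs were chosen with earlier results of these data known. Alternatives were single probes, no centring, a common spread, quantile normalization, self-self arrays in the fit, the second array of pair 2 averaged in, a replicate block, array weights, robust eBayes and each array left out. Leaving out probes listed at exactly 0 was added after seeing the data.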

Additional observations from a re-analysis of the deposited data

Results flagged for a closer look

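For 13 of 228 groups of arrays (5.70%; chance gives about 1 in 20) 1 array stood apart from the others of its time in a named gene. At 4 h, array 1 was apart for Rimbp2 at 0.50 (nearest -0.016), S100a6 at -1.24 (nearest -0.79) and Ctsb at -0.92 (nearest -0.58). Array 5 at 4 h was apart for Dgat1 at 0.72 (nearest 0.30), Slc11a2 at 0.18 (nearest -0.018) and Enpp2 at -0.57 (nearest -0.034). The other arrays at 4 h gave 1 gene each: array 2 for Cox5a at 0.070 (nearest 0.53), array 3 for Gnaq at -0.26 (nearest -0.53) and array 4 for Zfp36l1 at -0.95 (nearest -0.16). At 20 min, array 3 was apart for Atf4 at 0.14 (nearest -0.11) and Gss at -0.46 (nearest -0.21), array 2 for Slc2a5 at -0.015 (nearest -0.38) and array 1 for Psmb1 at -0.058 (nearest 0.0045). No array was apart for Cnga3, Barhl1, Hspbp1 or Entpd2.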

How the results depend on the processing

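The count of 37 called features fell to 0 with the second array of pair 2 averaged in as deposited, to 11 with its sign turned, and to 22 with the replicate number as a block (16 of the 37 kept). Leaving out 1 array gave 5 to 39. The other settings gave 28 to 44, which is within 1.5 times. Deviations of arrays with the same replicate number correlated above 0.1 for 1 of 4 numbers, and 1 of 4 correlated best with its own number. So few correlations cannot decide whether such arrays share an animal or a batch, and the labels do not say. Leaving out probes listed at exactly 0 on a 20 min array gave 38 calls in 4521 features, with all 37 kept. The difference of Slc2a2 turned positive with arrays scaled to one spread (0.041), with quantile normalization (0.088), and with the second array of pair 2 as deposited (0.024) or turned (0.029). Without single arrays the difference of Slc2a2 ran from -0.18 to 0.030, of Slc5a1 from -0.17 to 0.30 and of Zfp36l1 from -1.34 to 0.24. G6pc1 passed the test with the replicate block (1.84). With the self-self arrays in the fit 28 features passed, and 26 of these were among the 37. Atf4, Trib3, Aqp8 and Slc19a1 were among those that then did not pass. No feature passed with the second array averaged in as deposited. The cause of these changes was not tested. The difference in SD between the times kept its sign and passed the exact test with the median absolute deviation in its place and without each array in turn, and the other settings were not run for it. Signal over background was not analysed here.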

Other observations

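Probes listed at exactly 0 occurred on the 20 min arrays and on no other array of the series. They were 178 probes, of which 129 were at 0 on 1 array, 19 on 2, 13 on 3 and 17 on all 4. No called feature was among them. Genes listed at 0 included Insig1, a brake on sterol synthesis, and Cat, the catalase gene, each with 4 zeros, and S100a8, a calcium binding protein gene of phagocytes, with 3. How these values arose was not tested, and a difference between the times for such a gene rests on the listed 0.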
